A study of Mus musculus with 32 samples.

Results

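The interferon regulatory factors (IRFs) *Irf1*, *Irf2*, *Irf3*, *Irf4*, *Irf5*, *Irf7*, *Irf8* and *Irf9* were followed in bone marrow-derived macrophages (BMDMs) in which *Trex1*, the gene of a cytosolic DNA exonuclease, was deleted in culture. The members were the rows of the deposited count table whose Ensembl identifier, without its version, belonged to 1 of these symbols, and all 8 were found among 54281 identifiers and among the 15257 genes that passed the filter on low counts. RNA was sequenced from BMDMs of 2 genotypes, *Trex1* FL/FL and *Trex1* WT/FL, where FL is the floxed allele that Cre can remove. Both carried R26CreERT2, a Cre recombinase expressed from the Rosa26 locus that becomes active on binding (Z)-4-hydroxytamoxifen (4-OHT). Cells were left untreated or received 2 µg/ml 4-OHT for 22 h, and RNA was taken on days 1, 2, 3 and 4 after the end of treatment, which gave 16 groups with 2 libraries each. The treated *Trex1* WT/FL cells served as the control for 4-OHT and active Cre, and they also lose a *Trex1* allele. Cre expressed from Rosa26 is not restricted to macrophages. The labels give no age, strain, animal, replicate number or batch, so the p-values measure the spread between these libraries, which may be technical.

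IRFs share an amino-terminal DNA-binding domain that recognises GAAA repeats, the core of the interferon-stimulated response element (ISRE). IRF3 and IRF7 wait in the cytoplasm until kinases such as TBK1 phosphorylate them downstream of the DNA sensor cGAS and its adaptor STING, and they then drive type I interferon (IFN) genes, while IRF5 is activated mainly through MYD88. Secreted IFN in turn activates ISGF3, a complex that contains STAT2 and IRF9 and induces IFN-stimulated genes (ISGs) including *Irf7* itself. IRF1 activates and IRF2 mostly antagonises transcription at overlapping elements, and IRF4 and IRF8 bind composite elements together with the ETS factor PU.1 and shape macrophage and dendritic cell identity.

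Totals per library ranged from 35120505 to 63760884 counts with a median of 44841991. *Trex1* had 0 to 14 counts in treated *Trex1* FL/FL libraries, 758 to 3622 in treated *Trex1* WT/FL libraries and 1174 to 6553 in untreated libraries. The summed level of 9 macrophage markers ranged from 15500 to 51100 CPM (counts per 1000000 counts of the TMM-scaled library), against 4.65 to 19.1 CPM for 8 neutrophil and granulocyte markers, 0.908 to 3.69 CPM for 8 dendritic cell markers and 1.31 to 6.65 CPM for 7 B cell markers. Marker sums of T and NK cells, mast cells and stroma stayed between 0.0223 and 2.37 CPM. In bulk RNA, fewer cells of a type and less RNA per cell cannot be told apart. The second untreated *Trex1* FL/FL library of day 1 was low in *Irf3*, *Irf7* and *Irf8* and is called the low library below. It deviated in both directions, as it held the highest day 1 levels of *Irf2* (54.3 CPM) and *Irf9* (48.1 CPM).

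Promoter sequence is shown for *Irf1*, *Irf2* and *Irf8*, where a search found IFN-related motifs, and for *Irf7*, the member with the largest increase, where it found none. In the 250 bases before the annotated start (GRCm39, GENCODE canonical transcripts), both strands were searched for the ISRE core (a pair of GAAA copies with 2 bases of any kind between them), held by 3.32% of 21515 protein-coding promoters, for the gamma-activated sequence TTCNNNGAA (GAS, an element of IFN-gamma responses), held by 7.66%, and for the ETS-IRF composite (GGAA, then 2 bases of any kind, then GAAA), held by 2.53%. *Irf2* held all of these, with its ISRE core and its composite element overlapping, *Irf1* held a GAS and *Irf8* held 2 GAS matches. The windows of *Irf3*, *Irf4*, *Irf5*, *Irf7* and *Irf9* did not contain these letters, which says nothing about binding of the factors. Only the canonical start of each gene was searched, and the windows of *Irf2*, *Irf5* and *Irf9* lie downstream of the furthest annotated start of the gene. Annotated exons cover 146 bases of the *Irf3* window, 72 bases of the *Irf5* window and all of the *Irf9* window. Capitals mark the matches. Of *Irf1* and *Irf2*, whose windows are largely covered by annotated exons of other transcripts or of the gene itself, 30 bases around a match are given, and of *Irf7* and *Irf8* the exon-free stretch before the start.
Irf1, chr11:53660741-53660770, plus strand: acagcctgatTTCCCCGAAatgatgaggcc
Irf2, chr8:47192526-47192555, plus strand: gacgtggGGAAGTGAAAATGAAAttgactt
Irf7, chr7:140846399-140846648, minus strand: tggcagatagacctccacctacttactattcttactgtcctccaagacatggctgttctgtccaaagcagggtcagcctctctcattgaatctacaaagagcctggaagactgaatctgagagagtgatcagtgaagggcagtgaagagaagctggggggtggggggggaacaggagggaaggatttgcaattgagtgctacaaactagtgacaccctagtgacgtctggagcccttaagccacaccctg
Irf8, chr8:121462847-121463095, plus strand: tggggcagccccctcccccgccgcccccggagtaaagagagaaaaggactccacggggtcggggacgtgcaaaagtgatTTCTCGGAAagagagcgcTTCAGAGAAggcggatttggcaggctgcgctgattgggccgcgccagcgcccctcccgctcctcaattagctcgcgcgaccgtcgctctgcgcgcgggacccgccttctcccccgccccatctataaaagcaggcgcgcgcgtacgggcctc
The GAS of *Irf1*, TTCCCCGAA, begins 90 bases before the start. In *Irf2* the ISRE core GAAAATGAAA begins 221 bases and a GAS, TTCCGAGAA, 204 bases before the start. In *Irf8* the matches TTCTCGGAA and TTCAGAGAA begin 171 and 153 bases before it.

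Across the 32 libraries *Irf7* varied most, from 18.6 to 2669 CPM, a 144-fold range. *Irf1* varied 7.2-fold (25.6 to 184.5 CPM), *Irf4* 6.88-fold, *Irf8* 5.31-fold and *Irf9* 3.08-fold, while *Irf2*, *Irf5* and *Irf3* varied 2.62-fold, 2.25-fold and 2.19-fold. Without the low untreated *Trex1* FL/FL library of day 1 the ranges were 135-fold for *Irf7*, 6.55-fold for *Irf4*, 4.65-fold for *Irf8* and 1.58-fold for *Irf3*, and those of the other members were the same. Levels of different genes were compared per kilobase of exon. In treated *Trex1* FL/FL cells on day 1, *Irf5* led with a level of 21.5 CPM per kilobase, followed by *Irf3* at 9.92 ± 0.237, *Irf9* at 7.6 ± 0.377, *Irf7* at 7.28 ± 1.18, *Irf8* at 6.66 ± 0.382, *Irf1* at 5.92 ± 0.148, *Irf2* at 4.31 ± 0.0227 and *Irf4* at 0.269 ± 0.0202 CPM per kilobase (SD, n = 2). The libraries of *Irf9* and *Irf7*, and those of *Irf7* and *Irf8*, overlapped in this order. On day 4 *Irf7* led in the same arm with 675 ± 43.9 CPM per kilobase, ahead of *Irf5* at 43.5 ± 1.62 and *Irf1* at 32.8 ± 0.71 (SD, n = 2). *Irf7* also led in treated *Trex1* WT/FL cells on day 4, at 130 ± 10.2 CPM per kilobase, where *Irf5* followed at 31.3 ± 0.72, *Irf8* at 28 ± 1.44, and *Irf1* and *Irf9* overlapped at 16.7 CPM per kilobase. *Irf4* stood last in every one of these groups.

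**Figure D1:**
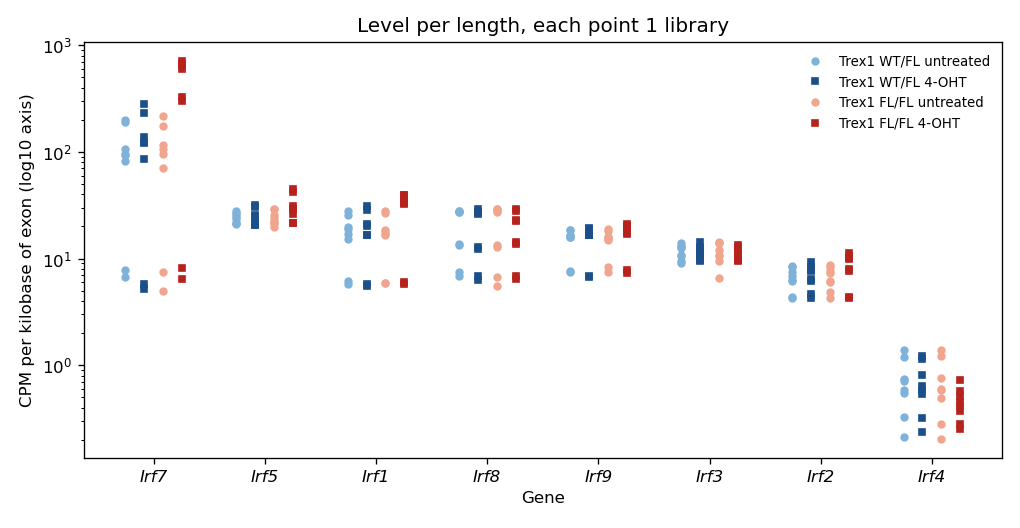
Level of each IRF in CPM per kilobase of exon (log10 axis), with each point 1 library and colours and symbols for the 4 combinations of genotype and treatment. Irf7 spans from 4.92 to 706 CPM per kilobase and Irf4 lies below all other members.

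The first question was whether loss of *Trex1* changed the IRF transcripts, and this was asked by comparing treated *Trex1* FL/FL with treated *Trex1* WT/FL cells on each day. *Irf7* and *Irf1* were the members with the largest increases, and *Irf5* and *Irf2* rose less. *Irf9* passed on day 4 only, *Irf4* and *Irf8* were lower on day 3, and *Irf3* did not pass on any day. In comparisons within a day, rose and fell mean higher and lower than in the control group of that day. Tests were edgeR's quasi-likelihood tests over all 15257 genes with Benjamini-Hochberg adjustment, and a gene passed at an adjusted p below 0.01. On day 1, 0 of 8 members passed, where 0.0197% of all tested genes passed in either direction. On day 2, 4 members rose, against 5.69% of all genes, and 0 fell, against 2.48%. On day 3, 3 rose (6.69% of all genes) and 2 fell (5.42%), and on day 4, 5 rose (9.84%) and 0 fell (11.7%). The median log2 fold change of the 8 members was 0.039, 0.23, 0.14 and 0.37 on days 1 to 4, beside -0.011, -0.0097, -0.0073 and -0.037 for all genes. When the log2 fold change also had to exceed 1.5 in size, *Irf7* was left on days 2 and 4, where 0.498% and 1.65% of all genes rose by this rule, and no member on days 1 and 3, where 0.00655% and 0.485% did.

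**Figure D2:**
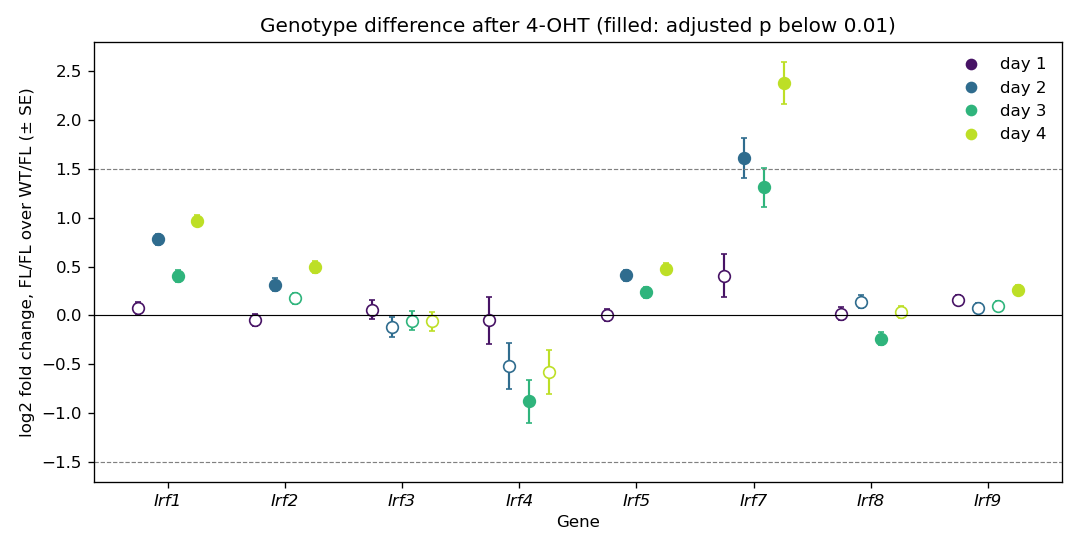
Log2 fold change of treated Trex1 FL/FL over treated Trex1 WT/FL cells for each IRF on days 1 to 4, with bars for the SE and filled points for an adjusted p below 0.01. Irf7 reaches 2.38 on day 4, Irf1 0.97, and the point of Irf4 on day 3 lies at -0.88.

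*Irf7*, the factor that amplifies type I IFN production, started from 24.4 and 30.7 CPM in the treated *Trex1* FL/FL libraries of day 1 and from 19.8 and 21.7 CPM in the treated *Trex1* WT/FL libraries. On day 2 it reached 1127 and 1246 CPM against 324 and 455 CPM. On day 3 the values were 2260 and 2519 CPM against 873 and 1054 CPM, and on day 4 they were 2434 and 2669 CPM against 463 and 518 CPM. The *Trex1* FL/FL libraries lay above all control libraries of the same day on days 2, 3 and 4, and on day 1 they overlapped the untreated libraries, which held 18.6 to 29.4 CPM. *Irf7* rose 3.05-fold on day 2 (log2 fold change 1.61 ± 0.21 SE, adjusted p = 2.51e-05), 2.48-fold on day 3 (1.31 ± 0.20, adjusted p = 0.000168) and 5.2-fold on day 4 (2.38 ± 0.21, adjusted p = 1.07e-07). On day 1 the log2 fold change was 0.41 with a 95% interval from -0.06 to 0.87 (unadjusted p = 0.0798, adjusted p = 1). Without a filter on low counts the day 1 value was 0.40 with an adjusted p of 3.48e-05, and in a fit of only the 4 libraries of the comparison the day 2 increase had an adjusted p of 0.043. The gene lies on the minus strand at chr7:140842619-140846398 (GRCm39), and 0.764% of its 31-base words are shared, with *Phrf1*.

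*Irf1*, an activator of IFN and antigen-presentation genes, began at 27.2 and 28.2 CPM in the treated *Trex1* FL/FL libraries of day 1, beside 25.6 and 27 CPM in treated *Trex1* WT/FL. On day 2 it stood at 158.5 and 171.5 CPM against 94.1 and 98.3 CPM. On day 3 it stood at 184.1 and 184.5 CPM against 133.5 and 144.8 CPM, and on day 4 at 151.1 and 155.8 CPM against 77.8 and 78.7 CPM. From day 2 the treated *Trex1* FL/FL libraries were above every other library of the same day. The transcript rose 1.72-fold on day 2 (log2 fold change 0.78 ± 0.059 SE, adjusted p = 4.38e-10), 1.32-fold on day 3 (0.41 ± 0.058, adjusted p = 9.33e-06) and 1.96-fold on day 4 (0.97 ± 0.059, adjusted p = 6.07e-13). Antisense genes cover part of *Irf1* (chr11:53660812-53669200, plus strand), and 41% of its 31-base words recur in other genes, so reads there cannot be told apart without strand. Of these antisense genes *Gm17334* reached at most 14 counts and *Gm12216* at most 60 counts in a library.

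*Irf2*, best known for opposing IRF1, began at 48 and 48.3 CPM in the treated *Trex1* FL/FL libraries of day 1, beside 47.6 and 52 CPM in treated *Trex1* WT/FL. It reached 85.6 and 88.3 CPM against 68.4 and 71.3 CPM on day 2, 110.5 and 112 CPM against 93.4 and 103.7 CPM on day 3, and 119 and 124.9 CPM against 85.3 and 87.1 CPM on day 4. The groups overlapped on day 1 and separated on the later days. *Irf2* rose 1.25-fold on day 2 (log2 fold change 0.32 ± 0.062 SE, adjusted p = 0.000523) and 1.42-fold on day 4 (0.50 ± 0.061, adjusted p = 2.67e-07), and the day 3 difference of 0.17 had an adjusted p of 0.0452. The day 2 call was lost without 1 treated *Trex1* WT/FL library (adjusted p = 0.017) and without 1 treated *Trex1* FL/FL library (adjusted p = 0.0126).

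*Irf5*, which acts in Toll-like receptor signalling, stood at 154.1 CPM in both treated *Trex1* FL/FL libraries of day 1 and at 150.2 and 156.9 CPM in treated *Trex1* WT/FL cells. On day 2 it was at 187.6 and 207.5 CPM against 147.3 and 149.4 CPM. On day 3 it was at 208.5 and 220.8 CPM against 181.2 and 182.4 CPM, and on day 4 at 303.6 and 320.0 CPM against 220.4 and 227.7 CPM. The groups did not overlap from day 2 onwards. *Irf5* rose 1.33-fold on day 2 (log2 fold change 0.41 ± 0.057 SE, adjusted p = 5.78e-06), 1.18-fold on day 3 (0.24 ± 0.057, adjusted p = 0.00308) and 1.39-fold on day 4 (0.48 ± 0.057, adjusted p = 1.79e-07). The day 3 call was lost without either treated *Trex1* WT/FL library (adjusted p = 0.0265 and 0.0279) and without 1 treated *Trex1* FL/FL library (adjusted p = 0.0673). *Tnpo3* on the opposite strand accounts for most of the 5.38% of 31-base words that *Irf5* shares, and it was expressed at 66.4 to 120 CPM.

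*Irf9*, the DNA-binding subunit of ISGF3, was at 42.5 and 45.6 CPM in treated *Trex1* FL/FL cells on day 1 against 39.4 and 39.7 CPM in treated *Trex1* WT/FL cells. It was at 99.5 and 103.4 CPM against 95.7 and 96.1 CPM on day 2, at 116.5 and 121.3 CPM against 109.8 and 112.3 CPM on day 3, and at 114.7 and 116.4 CPM against 96.3 and 96.9 CPM on day 4. The groups were apart on every day, but an exact permutation test gives a separation of 2 against 2 libraries a p no lower than 0.33. Only the day 4 difference passed, with a 1.2-fold increase (log2 fold change 0.26 ± 0.051 SE, adjusted p = 0.000267). The differences of days 1, 2 and 3 were 0.16, 0.08 and 0.10, with adjusted p values of 1, 0.379 and 0.202. *Irf9* was the 1 member with an unadjusted p below 0.05 in edgeR's test of day 1, a level reached by 2.02% of all genes. *Irf9* shares 9.75% of its 31-base words, 595 in all. Of these, 252 recur in *Rnf31* on the same strand, which was at 25.2 to 109 CPM.

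*Irf3*, whose protein is activated through cGAS and STING, ranged from 23 to 50.2 CPM over all libraries and from 31.7 to 50.2 CPM without the low untreated *Trex1* FL/FL library of day 1, the smallest fold range among the members in both cases. In treated *Trex1* FL/FL cells it was at 34 and 35.1, 32.9 and 35.2, 38.1 and 42.1, and 44.4 and 46.6 CPM on days 1, 2, 3 and 4. In treated *Trex1* WT/FL cells it was at 32.7 and 33.5, 36.1 and 37.9, 40.4 and 42.6, and 44.7 and 50 CPM. The groups overlapped on days 3 and 4. The log2 fold changes were 0.06, -0.12, -0.05 and -0.06, with 95% intervals that reached no further than -0.33 and 0.27. These values concern the transcript and not the phosphorylated protein.

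*Irf4*, a factor of alternative macrophage activation and of dendritic cells, was the scarcest member, with 43 to 312 counts in a library. In treated *Trex1* FL/FL cells it stood at 1.25 and 1.39, 1.83 and 2.05, 2.79 and 3.54, and 2.21 and 2.55 CPM on days 1, 2, 3 and 4. In treated *Trex1* WT/FL cells it stood at 1.17 and 1.56, 2.66 and 2.90, 5.61 and 5.94, and 3.16 and 3.95 CPM. From day 2 the treated *Trex1* FL/FL libraries lay below those of treated *Trex1* WT/FL. On day 3 the transcript was 1.83-fold lower than in treated *Trex1* WT/FL cells (log2 fold change -0.88 ± 0.22 SE, adjusted p = 0.00482). The values of -0.52 on day 2 and -0.58 on day 4 had adjusted p values of 0.169 and 0.0548. The day 3 call was lost when any of its 4 libraries was left out, with adjusted p values from 0.0123 to 0.0994.

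*Irf8*, a determinant of the monocyte and macrophage lineage, stood at 62.1 and 67.4, 133.9 and 137.7, 218.7 and 222.6, and 273.5 and 284.9 CPM in treated *Trex1* FL/FL cells on days 1, 2, 3 and 4. In treated *Trex1* WT/FL cells it stood at 61.5 and 66.5, 120.4 and 126, 255.9 and 264.4, and 262.3 and 282.1 CPM. The *Trex1* FL/FL libraries were above those of *Trex1* WT/FL on day 2 and below them on day 3, and the groups overlapped on days 1 and 4. *Irf8* was 1.18-fold lower than in treated *Trex1* WT/FL cells on day 3 (log2 fold change -0.24 ± 0.064 SE, adjusted p = 0.0086). The other days gave 0.02, 0.14 and 0.04, with adjusted p values of 1, 0.183 and 0.728. The day 3 call was lost when any of its 4 libraries was left out (adjusted p from 0.0321 to 0.076), with RLE factors (adjusted p = 0.0141), without robust estimation (adjusted p = 0.0111) and in a fit of 4 libraries (adjusted p = 0.0104).

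Because *Irf4* and *Irf8* are also abundant in dendritic cells and B cells, marker sums of day 3 are set beside them. The 8 dendritic cell markers, of which 6 passed the filter on low counts, summed to 1.78 to 2.63 CPM in treated *Trex1* FL/FL and to 2.68 to 3.1 CPM in treated *Trex1* WT/FL cells. *Cd209a* was at 0 in all treated *Trex1* FL/FL libraries and also in all untreated *Trex1* WT/FL libraries. The 7 B cell markers, of which 1 passed the filter, summed to 4.39 to 4.43 and to 4.69 to 6.28 CPM, with *Ebf1* at 0 in all *Trex1* FL/FL and all untreated *Trex1* WT/FL libraries and at no more than 1 count in the rest. The 9 macrophage markers also summed to less, 41300 to 41800 against 48500 to 50600 CPM. Single genes weigh heavily in these sums. Over all libraries *Lyz2* alone spanned 11100 to 34000 CPM, and the B cell marker *Cd79b* 1.23 to 6.56 CPM. Macrophage markers went both ways between the treated genotypes on day 3, with log2 fold changes of 0.24 for *Cd68* and -0.36 for *Csf1r*. The part of these sums in the values of *Irf4* and *Irf8* was not tested.

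**Figure D3:**
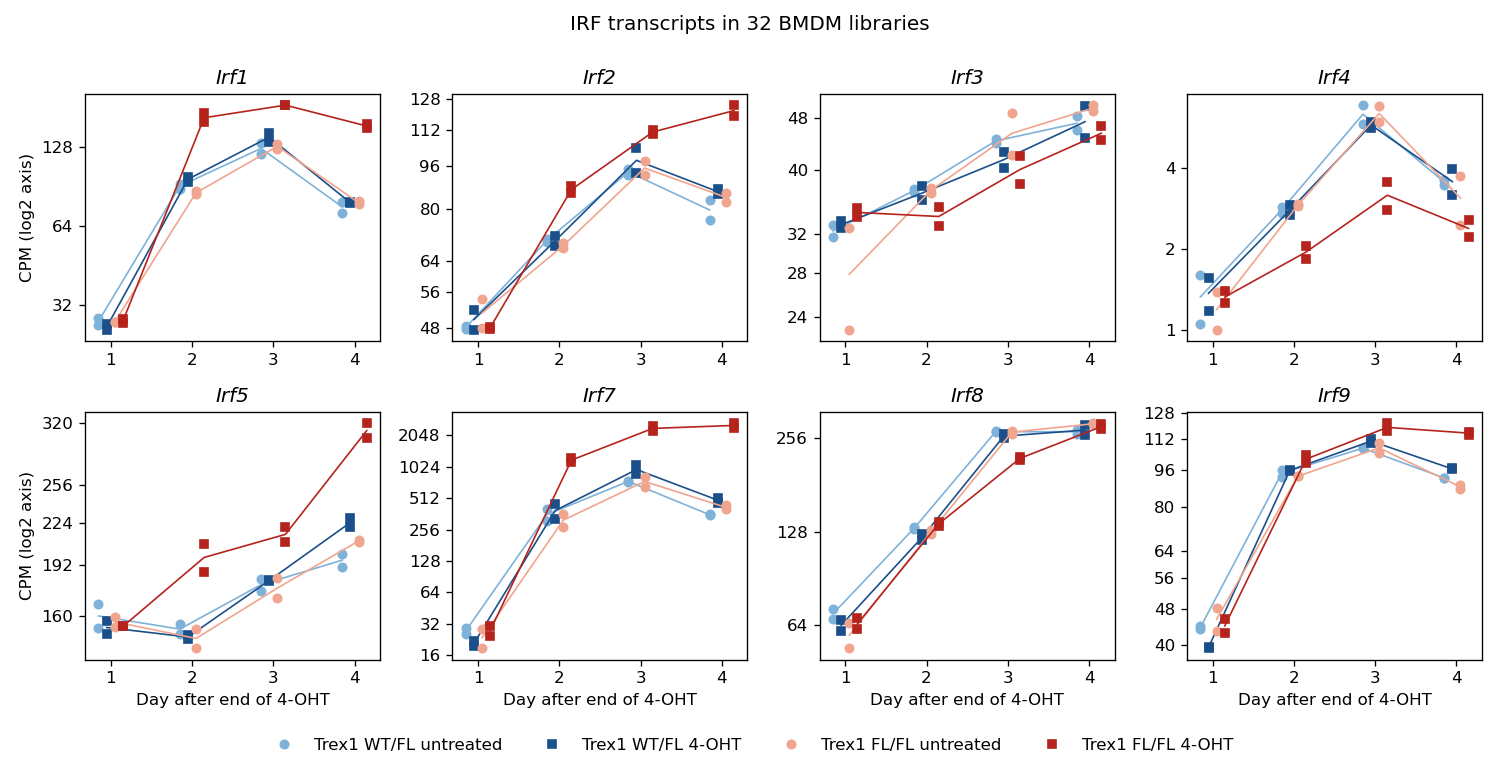
CPM of each IRF (log2 axis) by day after the end of 4-OHT, with each point 1 library and lines through the group means of the 4 combinations of genotype and treatment. Treated Trex1 FL/FL cells hold 2434 and 2669 CPM of Irf7 on day 4 against 353 to 518 CPM in the other libraries, and they run below the other groups for Irf4 on days 2 and 3.

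Treated and untreated cells were then compared within each genotype. In *Trex1* FL/FL cells this comparison joins the loss of both *Trex1* alleles with 4-OHT and active Cre. In *Trex1* WT/FL cells it joins the loss of an allele with them, so neither shows 4-OHT and Cre alone. In *Trex1* FL/FL cells, 4-OHT against untreated gave 0 members passing on day 1 (0.0131% of all genes in either direction), and 1, *Irf3*, at an unadjusted p below 0.05 (7% of all genes). It gave 4 higher on day 2 (7.49% of all genes), 4 higher and 2 lower on day 3 (8.12% and 7.57%) and 5 higher on day 4 (10.2%). *Irf7* rose by 1.91, 1.69 and 2.61 on the log2 scale on days 2, 3 and 4, and *Irf1* by 0.95, 0.52 and 0.97. *Irf2* rose by 0.35, 0.22 and 0.54 and *Irf5* by 0.42, 0.28 and 0.57 on the same days, and *Irf9* rose by 0.39 on day 4. On day 3 *Irf4* fell by 1.02 (adjusted p = 0.000963) and *Irf8* fell by 0.28 (adjusted p = 0.00162), and without any 1 of the 4 libraries 3 of these 6 calls of day 3 were left. These comparisons use the same treated *Trex1* FL/FL libraries as the comparison of genotypes.

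In *Trex1* WT/FL cells, 4-OHT against untreated gave 0 of 8 members by edgeR and 0 by DESeq2 on each day, where 0.00655%, 0.0918%, 0.341% and 0.216% of all genes passed on days 1 to 4. At an unadjusted p below 0.05 there were 1, 0, 1 and 2 members on these days, namely *Irf9*, then *Irf1*, then *Irf5* and *Irf7*, beside 2.48%, 3.47%, 8.4% and 7.08% of all genes. The log2 fold change of *Irf7* was -0.40, 0.13, 0.38 and 0.46 on days 1 to 4, and the 95% interval on day 4 ran from 0.04 to 0.89 (adjusted p = 0.63). Without the filter on low counts *Irf7* passed on days 1, 3 and 4. *Irf5* differed by 0.20 on day 4 with an interval from 0.08 to 0.32 (adjusted p = 0.184).

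**Figure D4:**
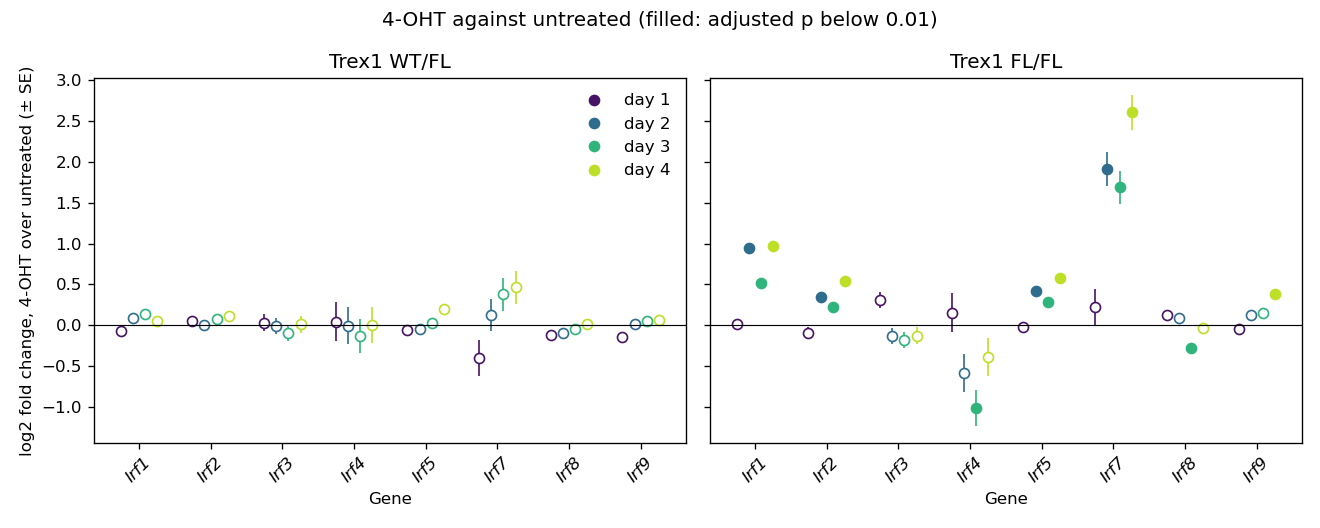
Log2 fold change of 4-OHT-treated over untreated cells for each IRF on days 1 to 4, in Trex1 WT/FL (left) and Trex1 FL/FL cells (right), with bars for the SE and filled points for an adjusted p below 0.01. No point is filled in Trex1 WT/FL cells, where Irf7 reaches 0.46, and in Trex1 FL/FL cells Irf7 reaches 2.61.

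Untreated cells of the 2 genotypes were compared to see whether the members differed before Cre was activated. By edgeR 0 members passed on any day and by DESeq2 0, where 0%, 0%, 0% and 0.0655% of all genes passed on days 1 to 4. On day 1, 2 members had an unadjusted p below 0.05, *Irf3* with a log2 difference of -0.22 and *Irf8* with -0.23, and on days 2, 3 and 4 there were 0, where 7.4%, 3.85%, 3.07% and 15.8% of all genes reached that level on days 1 to 4. The untreated *Trex1* FL/FL libraries of day 1 were unlike each other, with *Irf3* at 32.8 and 23 CPM, *Irf7* at 28.4 and 18.6 CPM and *Irf8* at 65 and 53.9 CPM. With only the lower of these libraries kept, *Irf3* and *Irf8* passed in this comparison, in that of 4-OHT with untreated *Trex1* FL/FL cells and in the interaction of day 1. With only the higher kept, 0 members passed in any of them.

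The interaction is the genotype difference after 4-OHT minus that in untreated cells. On day 1, 0 members passed by edgeR and by DESeq2 (0.00655% of all genes), with 1 at an unadjusted p below 0.05, *Irf8* (3.57%). On day 2, 3 members passed upwards (3.55% of all genes), on day 3, 2 (2.65%) and on day 4, 5 (5.15%), and 0 passed downwards (0.492%, 2% and 5.24%). In order of these days *Irf7* had interaction values of 1.79 ± 0.29, 1.31 ± 0.28 and 2.14 ± 0.29 (log2, SE), and *Irf1* had 0.86 ± 0.083, 0.38 ± 0.082 and 0.92 ± 0.084. *Irf5* passed on days 2 and 4 with 0.46 and 0.38, *Irf2* on day 4 with 0.42 and *Irf9* on day 4 with 0.32. *Irf4* and *Irf8*, which were lower between treated genotypes on day 3, had interaction values of -0.89 (adjusted p = 0.0721) and -0.23 (adjusted p = 0.121) on that day. On day 3, leaving out 1 of the 8 libraries left 0 or 1 members.

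The difference between treated genotypes was then compared between consecutive days. From day 1 to day 2 it grew for *Irf1* by 0.70 (adjusted p = 5.1e-06), for *Irf5* by 0.41 (adjusted p = 0.00167) and for *Irf2* by 0.37 (adjusted p = 0.00963), 3 members where 2.67% of all genes passed upwards. The change of *Irf7* was larger, 1.20 with an interval from 0.57 to 1.83, but had an adjusted p of 0.0233. From day 2 to day 3, 0 members passed (0.905% of all genes in either direction), 3 had an unadjusted p below 0.05 (14.8%) and DESeq2 called 2. *Irf1* differed by -0.37 (adjusted p = 0.0115) and *Irf8* by -0.38 (adjusted p = 0.0205). From day 3 to day 4 the difference grew for *Irf1* by 0.57 (adjusted p = 3.3e-05), 1 member where 1.67% of all genes passed upwards, and the values for *Irf7* and *Irf2* were 1.07 (adjusted p = 0.0294) and 0.33 (adjusted p = 0.0181). Without 1 treated *Trex1* FL/FL library of day 1 or of day 2, *Irf1* was the 1 member left in the first step.

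The members also moved with time in culture in every arm. The macrophage marker sum moved over the same days, from 15900 to 17800 CPM on day 1 over 32300 to 34200 CPM and 47800 to 49700 CPM to 31800 to 32400 CPM on day 4 in untreated *Trex1* WT/FL cells, and from 15500 to 17400 CPM over 27600 to 29900 CPM and 41300 to 41800 CPM to 33000 to 35300 CPM in treated *Trex1* FL/FL cells. The sum of mast cell and basophil markers was at 1.29 to 1.46 CPM on day 1 and at 0.107 to 0.121 CPM on day 3 in untreated *Trex1* WT/FL cells. The part of these sums in the steps of the members was not tested. From day 1 to day 2, 6 members rose in untreated *Trex1* WT/FL (20.2% of all genes), 7 in untreated *Trex1* FL/FL (20.3%), 6 in treated *Trex1* WT/FL (20.2%) and 6 in treated *Trex1* FL/FL cells (21.7%). *Irf7* rose by 3.70, 3.74, 4.23 and 5.43 on the log2 scale in these arms in this order, and *Irf1* by 1.71, 1.64, 1.87 and 2.57. *Irf9* rose by 1.11, 1.03, 1.28 and 1.20, *Irf8* by 0.92, 1.10, 0.94 and 1.07, and *Irf2* by 0.54, 0.42, 0.49 and 0.85. Thus the first step of *Irf7* was already large in untreated cells, which went from 18.6 to 29.4 CPM on day 1 to 269 to 404.5 CPM on day 2. *Irf4* rose by 1.07, 1.29 and 1.02 in the arms other than treated *Trex1* FL/FL, where the value was 0.55 (adjusted p = 0.0586). *Irf5* rose in treated *Trex1* FL/FL cells, by 0.36, and its values in the other arms were -0.07, -0.09 and -0.05. *Irf3* passed in untreated *Trex1* FL/FL cells alone, with 0.42. Without the low library of day 1 in that arm this step was 0.18 (adjusted p = 0.0871), and 6 members were left, with 3.47 for *Irf7* and 0.97 for *Irf8*.

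From day 2 to day 3, 7 members rose in untreated *Trex1* WT/FL (17.1% of all genes), 7 in untreated *Trex1* FL/FL (18.7%), 7 in treated *Trex1* WT/FL (17.7%) and 4 in treated *Trex1* FL/FL cells (15.1%). *Irf7* rose by 1.06, 1.23, 1.31 and 1.01 and *Irf8* by 1.03, 1.07, 1.08 and 0.70 in this order. *Irf1*, *Irf4* and *Irf5* passed in the other arms but not in treated *Trex1* FL/FL cells, where their values were 0.16 (adjusted p = 0.0271), 0.70 (adjusted p = 0.0164) and 0.12 (adjusted p = 0.0944). The steps of *Irf2* and *Irf9* passed in all 4 arms.

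From day 3 to day 4, 5 members fell in untreated *Trex1* WT/FL cells (6.39% of all genes) and 0 rose (5.86%), and in untreated *Trex1* FL/FL cells 4 fell (7.18%) and 1 rose (6.42%). In treated *Trex1* WT/FL cells 3 fell (5.93%) and 1 rose (6.23%), and in treated *Trex1* FL/FL cells 1 fell (5.7%) and 2 rose (3.64%). *Irf7* fell by 1.06, 0.82 and 0.97 in the other arms, and its value in treated *Trex1* FL/FL cells was 0.09 (adjusted p = 0.827). *Irf1* fell in all arms, by 0.74, 0.71, 0.83 and 0.26. *Irf9* fell by 0.21, 0.28 and 0.20, with -0.04 in treated *Trex1* FL/FL cells. *Irf5* rose by 0.24 in untreated *Trex1* FL/FL, by 0.30 in treated *Trex1* WT/FL and by 0.54 in treated *Trex1* FL/FL cells, where *Irf8* rose by 0.34. Without 1 library at a time, 1 or 2 of the 5 calls were left in untreated *Trex1* WT/FL cells, 2 or 3 of 5 in untreated *Trex1* FL/FL and 2 or 3 of 4 in treated *Trex1* WT/FL and 1 or 2 of 3 in treated *Trex1* FL/FL cells.

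**Figure D5:**
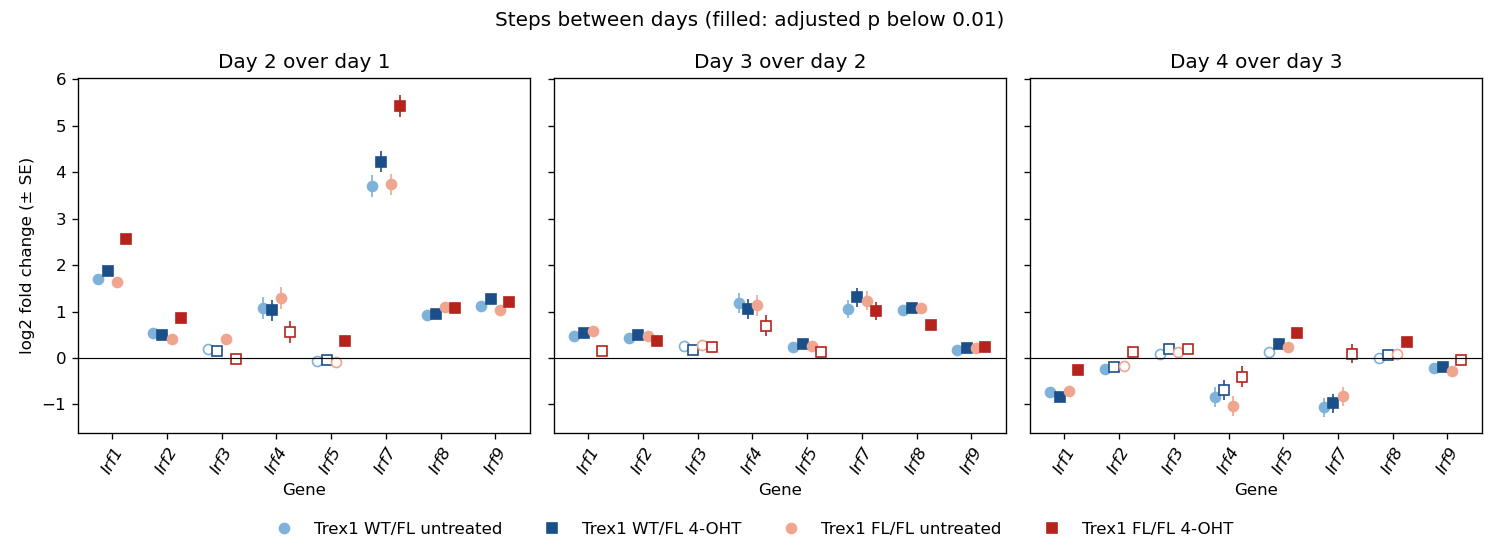
Log2 fold change between consecutive days for each IRF in the 4 combinations of genotype and treatment, with bars for the SE and filled symbols for an adjusted p below 0.01. From day 3 to day 4 Irf7 lies at 0.09 in treated Trex1 FL/FL cells and between -1.06 and -0.82 in the other arms.

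Genes around the IRFs were taken from lists of their activators, partners, regulators and targets, compared between treated genotypes. The lists were chosen with earlier results of these data known, so their counts are descriptions and not independent evidence. Beside the counts of these lists stand the shares of all tested genes, of which 0.00655%, 5.69%, 6.69% and 9.84% rose and 0.0131%, 2.48%, 5.42% and 11.7% fell on days 1 to 4. Of 16 ISRE target genes, all 16 rose on days 2, 3 and 4 and 0 on day 1, with median log2 fold changes of 0.41, 1.61, 1.28 and 2.8. *Cxcl10*, an IFN-inducible chemokine, was at 200 and 179 CPM against 13.5 and 16.8 CPM on day 4 (log2 fold change 3.65), and *Rsad2*, which encodes the antiviral protein viperin, was at 1130 and 1190 CPM against 86.8 and 130 CPM (3.42). Of 12 IRF1 and gamma-activated targets, 11, 9 and 11 rose on days 2, 3 and 4, and 1 fell on days 3 and 4, a share near that of all genes (5.42% and 11.7%). The guanylate-binding protein genes *Gbp5* and *Gbp2* rose by 2.24 and 2.23 on day 4. *Ciita*, the master regulator of MHC class II genes, fell by 1.04, from 4.98 and 4.34 to 2.1 and 2.42 CPM. The median of this list was 0.03, 0.95, 0.67 and 1.49 on days 1 to 4, and all genes had medians between -0.04 and -0.01.

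Of 9 genes of alternative activation known for IRF4, 7 were tested, and 0, 0, 4 and 3 of these fell on days 1 to 4. Of all genes, 0.0131%, 2.48%, 5.42% and 11.7% fell on these days. The medians of the tested genes of this list were -0.07, -0.39, -1.07 and -1.09. *Kdm6b*, a histone demethylase gene, went to 13.9 and 13.4 CPM from 31.7 and 27.5 CPM on day 4 (-1.12), and *Mrc1*, the mannose receptor gene, to 470 and 525 CPM from 1030 and 1090 CPM (-1.09). Of 9 myeloid genes known for IRF8 with PU.1, 0, 2, 4 and 5 rose and 0, 0, 1 and 2 fell, where 9.84% of all genes rose and 11.7% fell on day 4. On that day *Ctss* (cathepsin S) rose by 0.95 and *Klf4*, a transcription factor gene, by 0.61, while *Csf1r*, the receptor of the macrophage growth factor M-CSF, fell by 0.28.

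Among 11 DNA-binding partners of the IRFs, 0, 5, 4 and 4 rose on days 1 to 4, where 9.84% of all genes rose on day 4. *Stat2* was at 611 and 584 CPM against 138 and 162 CPM on day 4 (log2 fold change 1.99). Beside this, *Irf9*, whose protein joins STAT2 in ISGF3, had a log2 fold change of 0.26. Of 14 sensors, adaptors and kinases that activate IRFs, 0, 4, 2 and 5 rose and 0, 0, 1 and 2 fell, and the share that fell was near that of all genes (5.42% on day 3 and 11.7% on day 4). *Cgas* rose by 0.92 and *Azi2*, an adaptor of TBK1, by 0.72, while *Traf3* fell by 0.36 and *Irak4* fell by 0.28 on day 4. Of 9 genes listed as corepressors and regulators of IRFs, 0, 4, 4 and 6 rose and 1 fell on day 4, a share that fell near that of all genes (11.7%). *Mitd1*, whose protein is known from cell division, rose by 1.53, *Tasl*, the adaptor through which IRF5 is activated, by 1.19, and *Irf2bp2*, an IRF2-binding corepressor gene, fell by 0.28.

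Of 12 genes of IFN ligands, receptors and their kinases, 8 were tested, as *Ifna1*, *Ifna2*, *Ifna4* and *Ifng* did not pass the filter on low counts. On days 1 to 4, 0, 2, 1 and 2 of these rose and 0, 1, 2 and 3 fell, where 9.84% of all genes rose and 11.7% fell on day 4. *Ifnb1* was at 0.332 and 0.424 CPM in treated *Trex1* FL/FL cells and at 0 in both treated *Trex1* WT/FL libraries. As an upper limit for a count of 0, 3 counts per library were taken, which is 0.0506 and 0.0648 CPM. The lower *Trex1* FL/FL library was 5.12-fold above the higher of these limits. This ratio is not a strict bound. It leaves out the counting error of the *Trex1* FL/FL library itself and any spread between libraries beyond counting. *Jak2* rose by 0.62, and the receptor chain genes *Ifnar1* and *Ifngr1* fell by 0.37 and 0.23.

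Finally, the genes whose group means followed each member most closely were named, by Pearson's correlation of mean log2 CPM over the 16 groups among 10731 genes. These values are descriptions, since all points share the same libraries, days and treatments. *Irf7* was matched by *H2-T23* (0.998), *Lgals3bp* (0.997) and *Ms4a6c* (0.996), and *Irf1* by *Sh3glb1* (0.996), *Uba7* (0.996) and *Tapbp* (0.995). *Irf9* was matched by *Iigp1c* (0.996), *Gm5431* (0.994) and *Rtp4* (0.993), and *Irf2* by *Pgap2* (0.995), *C4b* (0.995) and *Tmcc3* (0.993). *Irf8* was matched by the lipid-transport genes *Pltp* (0.997) and *Apoe* (0.996) and by *Rhog* (0.996). The closest genes to *Irf4* were *Gm33989* (0.989), *Sft2d2* (0.987) and *Cdkn1b* (0.983), and to *Irf5* they were *Stap1* (0.979), *Fnbp4* (0.955) and *Bcl6* (0.954). For *Irf3* they were *Sh2b1* (0.973), *Scaf1* (0.972) and *Akt1s1* (0.972), of which *Scaf1* overlaps exons of *Irf3* on the opposite strand. Among the members themselves the highest of these coefficients was 0.985 for *Irf1* with *Irf7*, and the lowest 0.245 for *Irf4* with *Irf5*.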

How the data were processed

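Total RNA of 32 libraries was sequenced, and library strandedness is not given in the sources used here. The authors quantified reads with Salmon on GRCm39 and deposited estimated counts per gene, which were whole numbers and needed no rounding. The submitters' processing notes also name FastQC 11.9 and DESeq2 1.32, and the annotation release is not given in the sources used here. Columns were assigned to samples by the sample descriptions, and groups were taken from genotype, treatment and day. Symbols, exons and starts came from GENCODE M39, which 51048 of 54281 identifiers matched, and the others held 0.32% of counts.

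The main test was the robust quasi-likelihood F test of edgeR 4.0.16, run under R 4.3.3 (TMM factors from 0.894 to 1.12, 1 mean for each of 16 groups, 16 residual degrees of freedom, common biological coefficient of variation 0.0912). The edgeR filter with a minimum count of 10 kept 15257 genes. Fold changes used the edgeR prior count of 0.125 and log2 CPM a prior count of 2. The threshold was 0.01 after Benjamini-Hochberg adjustment over all tested genes, and a stricter rule added an absolute log2 fold change above 1.5. An exact permutation test of 2 against 2 libraries cannot give a two-sided p below 0.33. Library pairs of a group differed by more than sampling noise (chi-square per degree of freedom 8.55 to 47, Pearson's r across genes 0.983 to 0.99). The scripts were tested on simulated data.

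The members and the gene lists were chosen with earlier results of these data known. All members, the 3 genes closest to each, and up to 2 increases and 2 decreases of day 4 per list were named, except for a few genes that are not reported here. Promoter windows of 250 bases were read from GRCm39, and 31-base words were compared between transcripts. Alternatives were RLE and upper-quartile factors, no filter or a minimum count of 50, DESeq2 1.42.0, no robust estimation, an adjusted p below 0.05, fits of 16 or 4 libraries, comparison with untreated *Trex1* FL/FL cells, leaving out each library and, added after seeing the data, a block by title series.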

Additional observations from a re-analysis of the deposited data

Results flagged for a closer look

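The effect of 4-OHT differed between the genotypes by edgeR's quasi-likelihood test of the interaction (log2 scale) for *Irf1* (0.86), *Irf5* (0.46) and *Irf7* (1.79) on day 2, for *Irf1* (0.38) and *Irf7* (1.31) on day 3, and for *Irf1* (0.92), *Irf2* (0.42), *Irf5* (0.38), *Irf7* (2.14) and *Irf9* (0.32) on day 4. The difference between treated genotypes changed from day 1 to day 2 for *Irf1* (0.70), *Irf2* (0.37) and *Irf5* (0.41), and from day 3 to day 4 for *Irf1* (0.57). All groups hold 2 libraries, so no group was searched for a library that stands apart by Dixon's test.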

How the results depend on the processing

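The labels give no replicate numbers, but the titles run in series of consecutive numbers over the days. Chosen after seeing the data, a replicate block by title series within each genotype was fitted for the comparisons within a genotype, for the interaction and for the changes of the genotype difference. Deviations of the same series correlated across genes by 0.0136 to 0.144 between days of an arm (median 0.0703), over 0.1 in 3 of 24 pairs of groups. Between treatments of a genotype the median was 0.0652, with 7 of 32 pairs over 0.1. Between genotypes it was 0.0293, with 0 of 64 pairs over 0.1. The series were not taken as pairs in the main tests, and whether libraries of a series share an origin was not tested. The block gave 2 members for the change of the genotype difference from day 2 to 3 (*Irf1*, *Irf8*) and 3 for that from day 3 to 4 (*Irf1*, *Irf2*, *Irf7*), and 7 calls were gained and 0 lost in all. A block nested in a genotype gives no valid test of the genotype difference itself, and libraries of a series may share a culture across days. With only 2 libraries a group, leaving out 1 leaves a lone library that is assumed to vary like the other groups. Without 1 library, the day 3 log2 fold change between treated genotypes ranged from 0.349 to 0.465 for *Irf1* and from 1.18 to 1.45 for *Irf7*. Treated genotype calls of *Irf1*, *Irf5* and *Irf7* on days 2 and 4 and of *Irf2* and *Irf9* on day 4 passed whichever library was left out. Without the filter on low counts the number of members was 1 (*Irf7*) for the treated genotypes of day 1, for 4-OHT in *Trex1* WT/FL cells on days 1, 3 and 4 and for the interaction of day 1. It was 1 (*Irf8*) for the change of the genotype difference from day 2 to 3, 2 for that from day 3 to 4 and 3 for untreated *Trex1* WT/FL cells from day 3 to 4. The change from day 2 to 3 gave 1 with a minimum count of 50, 2 at an adjusted p below 0.05 and 2 with DESeq2. The change from day 3 to 4 gave 2 without robust estimation, 3 at an adjusted p below 0.05 and 3 with DESeq2. With a log2 fold change above 1.5 the number was 1 (*Irf7*) for treated genotypes on days 2 and 4, for 4-OHT in *Trex1* FL/FL cells on days 2, 3 and 4 and for the interaction on days 2 and 4. It was 2 (*Irf1* and *Irf7*) for day 1 to 2 in every arm, and 0 for treated genotypes and the interaction on day 3, for the changes of the genotype difference from day 1 to 2 and day 3 to 4, and for days 2 to 3 and 3 to 4 in every arm. The cause was not tested.

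Leaving out each library gave 0 to 2 members on day 1 for 4-OHT in *Trex1* FL/FL cells, for untreated genotypes and for the interaction. On day 3 it gave 2 to 3 for treated genotypes, 3 for 4-OHT in *Trex1* FL/FL cells and 0 to 1 for the interaction, and on day 4 it gave 3 to 5 for the interaction. It gave 1 to 2 for the change of the genotype difference from day 1 to 2 and for that from day 3 to 4, and from day 3 to 4 it gave 1 to 2 in untreated *Trex1* WT/FL, 2 to 3 in untreated *Trex1* FL/FL, 2 to 3 in treated *Trex1* WT/FL and 1 to 2 in treated *Trex1* FL/FL cells. Differences that had not passed changed sign as follows. Without the filter *Irf5* had -0.00147 on day 1. Against untreated *Trex1* FL/FL cells *Irf4* had 0.154, *Irf5* -0.0241 and *Irf9* -0.0478 on day 1 and *Irf8* -0.0308 on day 4, and *Irf2* on day 3 passed with 0.22. Without 1 library, day 1 values ranged from -0.113 to 0.0141 for *Irf2*, -0.238 to 0.174 for *Irf4*, -0.0263 to 0.0363 for *Irf5* and -0.0434 to 0.0733 for *Irf8*. *Irf3* ranged from -0.122 to 0.0213 on day 3 and from -0.137 to 0.0236 on day 4, and *Irf8* from -0.0162 to 0.0892 on day 4.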
